A study of Mus musculus with 6 samples.

Results

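The 38 genes described here encode the vacuolar proton pump (V-ATPase) and the lysosome that it acidifies. They were taken by symbol from a list of known V-ATPase and lysosome genes, proposed with earlier results of these data in view, and all 38 were found among the 41388 genes of the files and passed the filter on low counts that left 9971 genes for testing. The set holds 16 V-ATPase genes, of which 8 encode subunits of the cytosolic V1 sector, 6 subunits of the membrane V0 sector and 2 accessory subunits. It also holds 12 acid hydrolases, 2 soluble cofactors (Psap and Npc2), 6 lysosomal membrane proteins and the transcription factors Tfeb and Tfe3.

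Neutrophils from the bone marrow of C57BL/6 mice gave 3 libraries of polarized and 3 of depolarized cells. All cells of both groups carried 250 nM DiBAC4(3), a dye that reports membrane potential, and had been stimulated with 100 nM ionomycin, a calcium ionophore. The groups were parted on a cell sorter by dye signal, and 20000 cells of each were taken from 2 to 4 minutes after stimulation, so no unstimulated group entered the comparison. The labels give no age, sex or number of mice. The libraries form 3 biological replicate pairs per the series' design text. The letters A, B and C name the pairs by ascending code.

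Libraries held 16904969 to 20381489 counts. Genes that mark mature neutrophils (Ly6g, S100a8, S100a9 and others) summed to at least 153139 CPM (counts scaled to a common library total and then by TMM factors) in every library, and the next highest of the marker lists, early neutrophil genes, to at most 22167. The library of polarized cells in pair C was the odd one: its median absolute log2 deviation from the mean of the other libraries of its group was 0.43 over the 38 genes and 0.40 over all genes, against 0.13 to 0.32 and 0.22 to 0.33 for the other 5 libraries. The depolarized library of pair B carries the title label run 1 and the other 5 run 2, a label whose meaning the sources do not give.

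The V-ATPase is a rotary motor. Its V1 sector hydrolyses ATP in the cytosol and turns the V0 ring, which carries protons into the lumen of lysosomes, endosomes and some secretory granules. The low luminal pH is what lets acid hydrolases such as the cathepsins digest protein, glycan and lipid. TFEB and TFE3 are basic helix-loop-helix factors known to switch on many lysosomal and V-ATPase genes through the CLEAR element, a short palindromic motif built around an E-box. In neutrophils the pump acidifies phagosomes and granules, and the azurophil granules share several proteins with lysosomes, among them Cd63, Cd68 and beta-glucuronidase.

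Of the 38 genes, 31 had an entry in the table of RefSeq promoters (GRCm38.p6), with 40 start sites in all. Atp6v1b2, Atp6v1c1, Atp6v1g1, Atp6v1h, Ctsb, Ctsh and Npc1 had none. The 250 bases before each start were searched on both strands for TCACGTG, the core of the CLEAR element, which includes the shorter E-box. The core was found before 8 of the 40 starts (20%), against 1028 of the 32851 starts in the table (3.13%), and the E-box before 9 of 40 (22.5%) against 1978 (6.02%). Matches stood before 4 of 11 hydrolase starts (Ctsa, Ctsd, Gaa and Gla), 2 of 5 starts of membrane protein genes (Lamp1 and Mcoln1), 2 of 16 V-ATPase starts (Atp6v0b and Atp6v1a), none of 5 starts of Tfeb and Tfe3 and none of 3 cofactor starts. A match is a stretch of letters and not a measured binding site. The 38 were listed as known V-ATPase and lysosome genes, a kind that TFEB and TFE3 are known to switch on through this element. The share of starts with a match is therefore background and not a result of these libraries. The stretch around the match nearest to each start is printed below from 5′ to 3′ on the strand of the gene, because these are the letters through which TFEB and TFE3 are known to act, and capitals mark the core as read on either strand.
Ctsa, chr2:164833749-164833772, plus strand: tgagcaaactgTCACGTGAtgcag
Gaa, chr11:119267811-119267840, plus strand: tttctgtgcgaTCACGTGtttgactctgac
Ctsd, chr7:142387908-142387937, minus strand: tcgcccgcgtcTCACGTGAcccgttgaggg
Gla, chrX:134601182-134601211, minus strand: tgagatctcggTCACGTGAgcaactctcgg
Atp6v1a, chr16:44139373-44139402, minus strand: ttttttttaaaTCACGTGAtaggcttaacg
Atp6v0b, chr4:117887330-117887359, minus strand: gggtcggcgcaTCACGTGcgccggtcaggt
Lamp1, chr8:13159134-13159160, plus strand: acgtgaccacaTCACGTGcggaacgga
Mcoln1, chr8:3500462-3500491, plus strand: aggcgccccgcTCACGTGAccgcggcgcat
The E-box within the nearest match began 12 bases before the start of Ctsa, 15 before Lamp1, 18 before Atp6v0b and 45 before Mcoln1. It lay 98 bases before the start of Ctsd, 131 before Atp6v1a, 140 before Gaa and 194 before Gla. Lamp1 had 4 matches, Atp6v0b, Ctsd, Gla and Mcoln1 had 2 each, and the other 3 genes had 1. All of the printed stretches but those of Atp6v1a and Gaa overlap an exon as listed in the files.

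Levels were compared between genes as the deposited RPKM, which is per gene length. Ctsd, which encodes the aspartic protease cathepsin D, was the most abundant of the 38 transcripts at 1061 ± 186 RPKM (SD, n = 6 libraries). It was followed by Psap, the precursor of the saposins that help hydrolases digest sphingolipids, at 365 ± 50.5 RPKM, and by Atp6v1e1, a stator subunit of V1, at 304 ± 17.4 RPKM. The accessory subunit Atp6ap1 stood at 292 ± 50.8 RPKM. The ranges over the 6 libraries of Psap (282 to 434), Atp6v1e1 (284 to 328) and Atp6ap1 (223 to 344) overlapped, so their order is within the spread. Atp6v1g1 (229 RPKM), Atp6v0e (212), Cd68 (194), Cd63 (177) and Atp6v0b (162) came next, each with a range that overlapped that of its neighbour.

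Within the pump, transcripts of the subunits did not stand at a common RPKM, a measure that rests on the listed gene length. V1 genes ran from 13.6 RPKM (Atp6v1h, the regulatory H subunit) through Atp6v1c1 (21.6), Atp6v1a (35.0), Atp6v1b2 (42.4), Atp6v1f (122) and Atp6v1d (127) to Atp6v1e1. On RPKM the genes of the catalytic hexamer, Atp6v1a and Atp6v1b2, thus lay below those of the stalk subunits D, F, E and G. That order did not hold on CPM, which is not divided by length. Without TMM scaling Atp6v1a and Atp6v1b2 had mean CPM of 192 and 209 in polarized and 231 and 241 in depolarized libraries. These means were above those of Atp6v1d (181 polarized, 175 depolarized) and Atp6v1f (128, 131). They were below those of Atp6v1g1 (262, 257) and Atp6v1e1 (368, 363). V0 genes ran from 3.93 RPKM for Tcirg1, the a3 subunit known from osteoclasts, and 10.2 for Atp6v0a1 to 22.4 for the proteolipid Atp6v0c, 60.2 for Atp6v0d1, 162 for Atp6v0b and 212 for Atp6v0e. The accessory subunit Atp6ap2, also known as the prorenin receptor, was at 59.4 RPKM.

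Hydrolases spanned the widest range of any class. Below Ctsd came Hexa (113 RPKM), the cysteine proteases Ctsb (90.6) and Ctsz (87.2), the mannosidase Man2b1 (85.7), the acid lipase Lipa (63.1 ± 17.5), the carboxypeptidase Ctsa (41.1 ± 13.4) and Ctsh (34.1). Ctsl (12.98), the galactosidase Gla (9.03), the glucuronidase Gusb (5.14) and the glucosidase Gaa (0.498 ± 0.199) were low. Of the membrane proteins Lamp2 (60.0 RPKM) lay above Lamp1 (17.7), the cholesterol exporter Npc1 was at 2.34 and the calcium channel Mcoln1, at 0.478, was the lowest of the 38. Npc2, the soluble partner of Npc1, was at 63.1 RPKM, and the transcription factors Tfe3 and Tfeb were at 4.31 and 3.33.

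**Figure D1:**
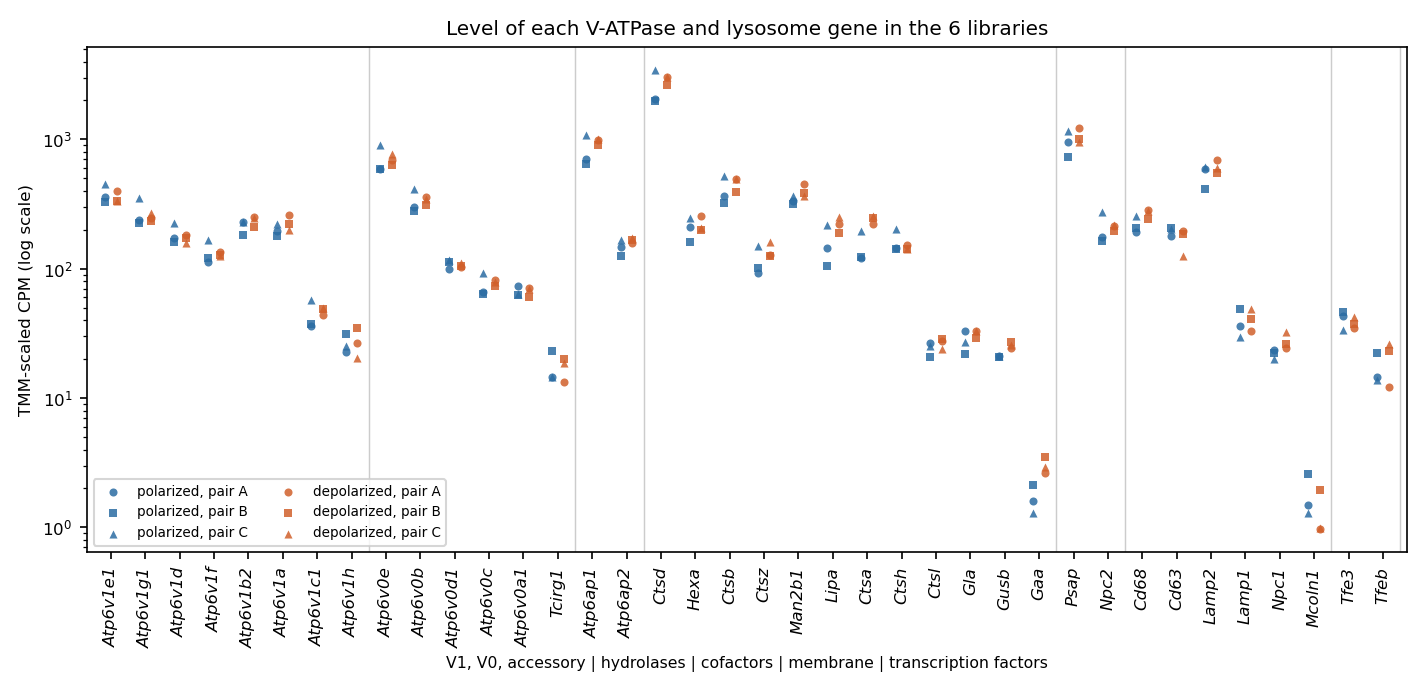
TMM-scaled CPM (log axis) of the 38 genes, grouped by class, with 1 point per library; blue points are polarized and orange points depolarized libraries, and the shape gives the pair. Ctsd lies highest and Gaa and Mcoln1 lowest, the depolarized points of Ctsa and Gaa lie above all polarized ones, and the polarized library of pair C (blue triangle) is often the highest of its group.

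The comparison asks which transcripts differ between the cells that depolarized and those that stayed polarized. Per-library levels below are CPM after scaling with TMM factors, the scale on which the groups were tested, and each difference is log2 of depolarized over polarized. None of the 38 genes passed edgeR's quasi-likelihood test at a Benjamini-Hochberg adjusted p under 0.05, a threshold that 0.321% of the 9971 genes passed (8 higher and 24 lower). At an unadjusted p under 0.05, 3 of the 38 stood out, Ctsa, Lipa and Gaa, all hydrolases and all higher in depolarized cells, against 3.26% of all genes that were higher and 6.58% in either direction. The fitted change was above 0 for 28 of the 38 genes (73.7%), with a median of 0.14 and a range from -0.47 to 0.87, while 49.6% of all genes tested were above 0. Since the libraries are bulk samples of sorted cells, fewer cells of a type and less RNA per cell cannot be told apart.

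For 4 of the 38 genes (Ctsa, Gaa, Gusb and Npc1) all depolarized libraries lay above all polarized ones, against 4.59% of all genes, and for none of the 38 did they all lie below, against 4.54%. On CPM without TMM scaling 9 of the 38 had all depolarized libraries above, against 7.28% of all genes, and none had them all below, against 3.14%. Ctsa, Gaa and Gusb were among the 9 and Npc1 was not, and the other 6 were Lipa, Man2b1, Cd68, Atp6v1a, Atp6ap1 and Atp6ap2. Within pairs, 10 of the 38 were higher in the depolarized library of all 3 pairs, against 12.9% of all genes, and 1 (Mcoln1) was lower in all 3, against 12.1%.

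**Figure D2:**
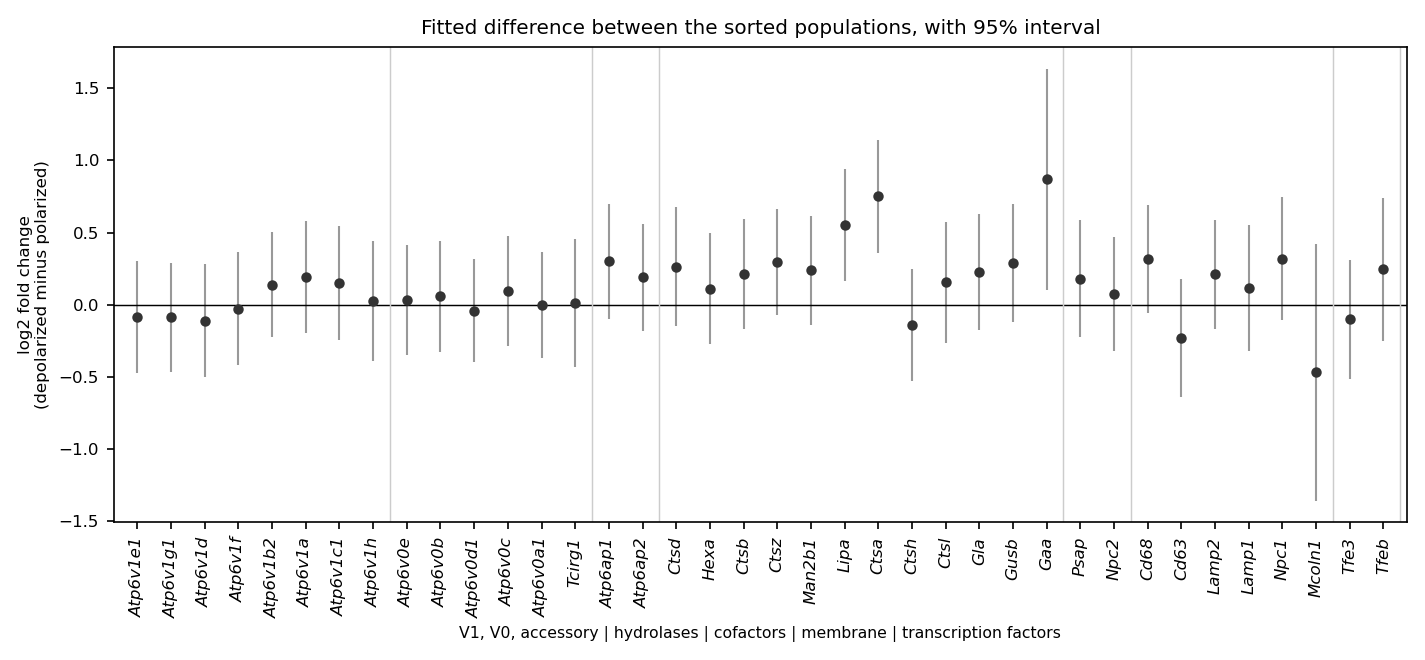
Fitted log2 fold change (depolarized minus polarized) of the 38 genes by class, with bars for the 95% interval. V-ATPase genes lie between -0.11 and 0.30, and all of their intervals include 0. Of the hydrolases 11 of 12 lie above 0, and the intervals of Ctsa, Lipa and Gaa do not reach 0 before adjustment.

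The hydrolases carried the larger differences. Of the 12, 11 had a fitted change above 0 and only Ctsh (-0.14) was below it, with a median of 0.25 against -0.0022 for all genes tested. No hydrolase passed the test over all genes. Leaving aside Ctsa, Lipa and Gaa, the other 9 had a median of 0.23, with 8 of 9 above 0.

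Ctsa (chr2:164832873-164841032, GRCm38, ENSMUSG00000017760) encodes cathepsin A, also called protective protein, a serine carboxypeptidase that stabilizes beta-galactosidase and neuraminidase 1 in the lysosome. In the order A, B, C used throughout, it stood at 121, 123 and 196 scaled CPM in polarized and at 220.1, 246 and 255 in depolarized libraries. Every depolarized library was above every polarized one, and the polarized library of pair C was the highest of its group. The fitted change was 0.75 ± 0.19 (SE), a 1.68-fold higher level, with a 95% interval from 0.36 to 1.14 (edgeR adjusted p 0.137). The pairs differed by 0.87, 1.002 and 0.38. Exons of Ctsa overlap those of Pltp and Neurl2 on the other strand over 10.5% and 6.87% of their length, but those genes held only 10 and 20 counts in all libraries together against 21756 for Ctsa.

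Lipa (chr19:34492318-34527474, ENSMUSG00000024781), the acid lipase that frees cholesterol and fatty acids from lipoprotein lipids, was at 145, 106 and 218 scaled CPM in polarized and at 221, 189 and 251 in depolarized libraries. The groups overlapped because the polarized library of pair C lay above the depolarized library of pair B. Its change was 0.55 ± 0.18, with an interval from 0.16 to 0.94 (edgeR adjusted p 0.404). The difference was above 0 in all pairs, at 0.61, 0.84 and 0.20.

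Gaa (chr11:119267887-119285454, ENSMUSG00000025579), the alpha-glucosidase that breaks down lysosomal glycogen, was rare at 1.59, 2.12 and 1.28 scaled CPM in polarized and 2.64, 3.47 and 2.94 in depolarized libraries. The groups did not overlap, on 91 counts in polarized and 175 in depolarized libraries. The change of 0.87 ± 0.36 was the largest of the 38 and the least precise among the hydrolases, with an interval from 0.10 to 1.64 (edgeR adjusted p 0.652). Pair C had the largest difference for this gene, 1.14, against 0.70 and 0.68 in A and B.

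Ctsd (chr7:142371148-142388038, ENSMUSG00000007891) was at 2069, 1967 and 3442 scaled CPM in polarized and at 3023, 2626 and 3033 in depolarized libraries. The polarized library of pair C was the highest of all 6, so the groups overlapped. The change was 0.26 ± 0.20 with an interval from -0.15 to 0.67 (edgeR adjusted p 1), and the pairs differed in sign, at 0.55, 0.42 and -0.18. Exons of Ctsd overlap those of Ifitm10 on the same strand over 6.47% of their length, with 722 counts for Ifitm10 against 301136.

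Among the other hydrolases, Ctsz, a carboxypeptidase of the cathepsin family, and Gusb, which removes glucuronic acid from glycosaminoglycans, each had a change of 0.29, with edgeR adjusted p of 0.918 and 0.963. Gusb was at 20.8 to 21.0 scaled CPM in polarized and 24.3 to 27.1 in depolarized libraries without overlap. Changes of Man2b1 (0.24), Gla (0.23), Ctsb (0.21), Ctsl (0.15) and Hexa (0.11) were smaller, and all had 95% intervals that included 0. Ctsa, Lipa, Gaa, Ctsz, Gusb and Gla were above 0 in all 3 pairs, Gla by 0.0020 in pair A. Ctsb shares 16.2% of its exon length with Fdft1 on the other strand (799 counts against 48339). The cofactors Psap (0.18) and Npc2 (0.07) were above 0 in pairs A and B and below 0 in pair C.

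No gene of the proton pump passed the test, and the pump did not share a direction. Of its 16 genes 10 were above 0 and 6 below, with a median of 0.03 and a range from -0.11 to 0.30, and the 95% intervals of the 16 reached from -0.50 to 0.70 at their outermost. The V1 subunits were split evenly, 4 above and 4 below. On scaled CPM the groups overlapped for all 16, and without TMM scaling they did not for Atp6v1a, Atp6ap1 and Atp6ap2.

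In V1, Atp6v1a, the catalytic A subunit, was at 194, 178 and 221 scaled CPM in polarized and 259, 220.3 and 199 in depolarized libraries, a change of 0.19 ± 0.18 (interval -0.20 to 0.58, edgeR adjusted p 1). Its pairs differed by 0.42, 0.30 and -0.15, so pair C had the opposite sign. Atp6v1b2, the B subunit, was at 229, 184 and 232 in polarized and 252, 208 and 248 in depolarized libraries, a change of 0.14 ± 0.17 (edgeR adjusted p 1). It was the only V1 gene above 0 in all 3 pairs, by 0.14, 0.18 and 0.10.

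Atp6v1c1, which links the stator to the V0 sector, was at 36.1, 37.5 and 57.4 scaled CPM in polarized and 43.6, 48.4 and 50.1 in depolarized libraries. Its change was 0.15 ± 0.19 (edgeR adjusted p 1), with the polarized library of pair C the highest of the 6. Atp6v1e1 (chr6:120795245-120822685, ENSMUSG00000019210), the most abundant pump gene per length, was at 359, 331 and 450.1 in polarized and 400.5, 335 and 333 in depolarized libraries. Its change was -0.09 ± 0.18 (edgeR adjusted p 1), and 5 of its 6 libraries lay between 331 and 400.5. The remaining V1 genes had changes of -0.11 (Atp6v1d), -0.09 (Atp6v1g1), -0.03 (Atp6v1f) and 0.02 (Atp6v1h).

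Of the accessory subunits, Atp6ap1 had the largest change of the 16 pump genes. Atp6ap1 (chrX:74297097-74304721, ENSMUSG00000019087), a luminal subunit that assists assembly of the pump, was at 700.0, 642 and 1085 scaled CPM in polarized and 987, 909 and 1015 in depolarized libraries. Its change was 0.30 ± 0.19 with an interval from -0.10 to 0.70 (edgeR adjusted p 0.932), and the pairs differed by 0.50, 0.50 and -0.10. Atp6ap2 was at 146, 125 and 167 in polarized and 159, 166 and 172 in depolarized libraries, a change of 0.19 ± 0.18 (edgeR adjusted p 1), above 0 in all 3 pairs. The groups overlapped for both genes.

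In V0, Atp6v0c, the proteolipid of the proton-carrying ring, was at 66.0, 64.2 and 92.0 scaled CPM in polarized and 82.2, 73.4 and 79.1 in depolarized libraries, with a change of 0.10 ± 0.18 (edgeR adjusted p 1). A pseudogene copy, Atp6v0c-ps2, held 292 counts against 8527, so reads may have been split between them. The other V0 genes lay closer to 0, with 0.06 for Atp6v0b, 0.03 for Atp6v0e, 0.01 for Tcirg1, -0.0034 for Atp6v0a1 and -0.04 for Atp6v0d1.

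Set against each other, hydrolases lay above the pump in every pair. The median pair difference of the 16 pump genes was 0.19 in pair A, 0.12 in B and -0.21 in C, and that of the 12 hydrolases was 0.44, 0.39 and 0.04. The hydrolase median exceeded the pump median by 0.25 in A, 0.26 in B and 0.25 in C, and by 0.22 in the fitted changes. In pairs A and B 12 of 12 hydrolases were above 0, with 14 and 13 of 16 pump genes, and in pair C 6 of 12 hydrolases and 4 of 16 pump genes were. The direction of each class in pair C depended on the scaling: on CPM without TMM scaling all differences in that pair are 0.23 higher, and the medians become 0.02 for the pump and 0.27 for the hydrolases. The gap between the classes within a pair is the same on both scales.

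**Figure D3:**
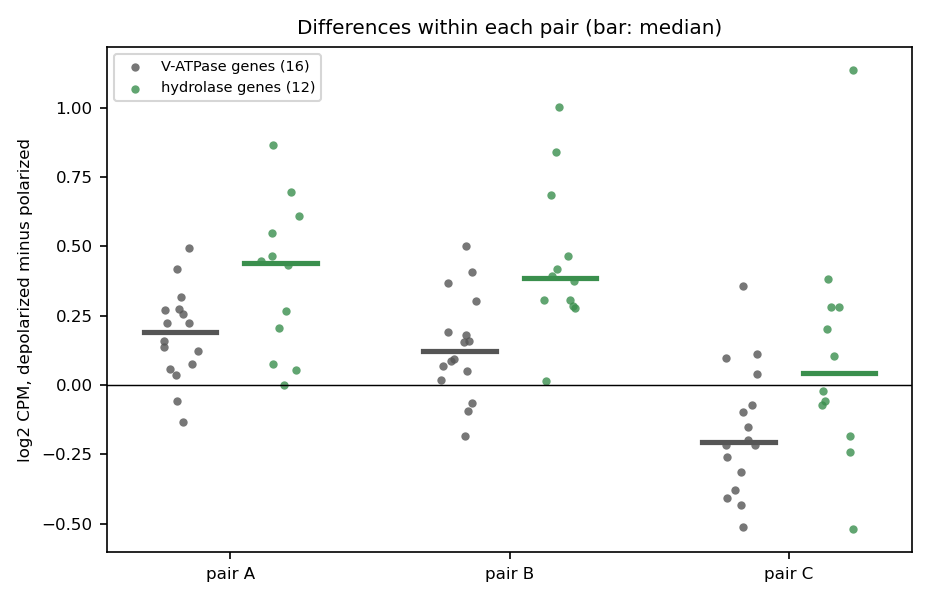
Difference in log2 CPM (TMM-scaled, depolarized minus polarized) within pairs A, B and C for the 16 V-ATPase genes (grey) and the 12 hydrolases (green), 1 point per gene and a bar at the median. The green bar lies 0.25 to 0.26 above the grey bar in each pair, and both lie lower in pair C.

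Summed over genes, the pump took 3356, 3171 and 4584 scaled CPM in polarized and 4014, 3655 and 3992 in depolarized libraries. The hydrolases took 3566, 3304 and 5419.8 in polarized and 5037, 4394 and 4996 in depolarized libraries. Both sums overlapped between groups because the polarized library of pair C was the highest of the 6. The ratio of hydrolase to pump CPM, which no scaling between libraries alters, was 1.06, 1.04 and 1.18 in polarized and 1.25, 1.20 and 1.25 in depolarized libraries, with means of 1.10 ± 0.076 and 1.24 ± 0.030 (SD, n = 3). All depolarized libraries were above all polarized ones, with log2 differences of 0.24, 0.21 and 0.08 within the pairs and a mean of 0.18 ± 0.08 (SD, n = 3 pairs).

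Ctsd made up 58.0% to 63.5% of the hydrolase sum. Without it the ratio was 0.446, 0.422 and 0.432 in polarized and 0.502, 0.484 and 0.492 in depolarized libraries, means of 0.433 ± 0.012 and 0.492 ± 0.0090. The groups again did not overlap, and the pairs differed by 0.17, 0.20 and 0.19 on the log2 scale, more alike than with Ctsd included. The genes were chosen with results of these data known, so these ratios are given as descriptions without a test.

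**Figure D4:**
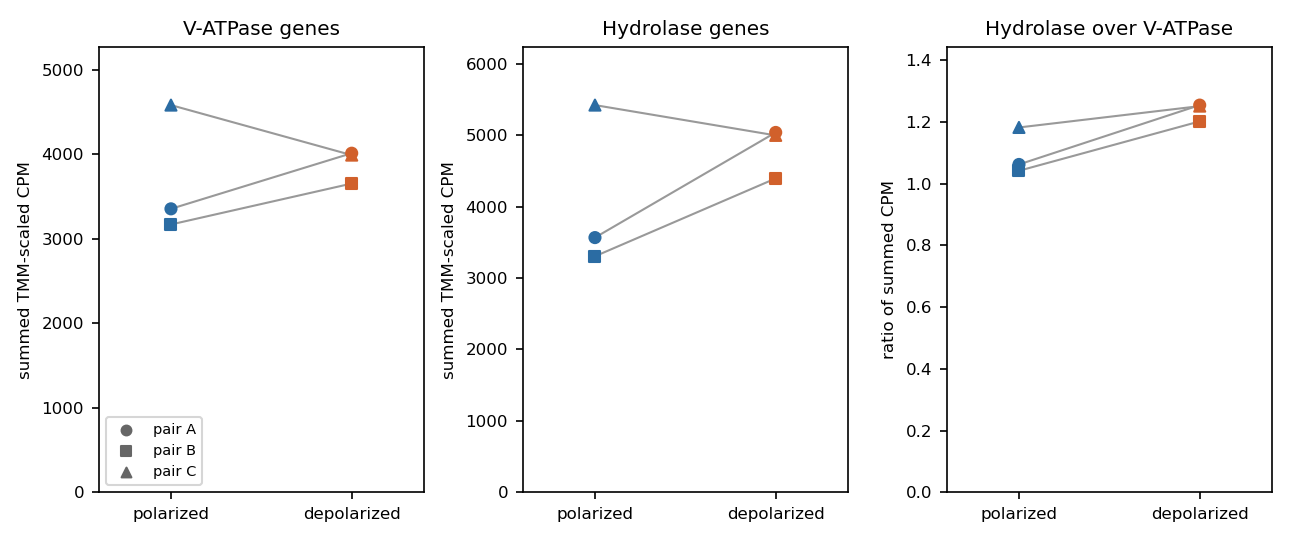
Summed TMM-scaled CPM of the 16 V-ATPase genes, of the 12 hydrolases, and the ratio of hydrolases to V-ATPase in each library, with lines joining the libraries of a pair. The sums of both classes are highest in the polarized library of pair C, and the ratio is 1.04 to 1.18 in polarized and 1.20 to 1.25 in depolarized libraries.

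The 6 membrane proteins did not share a direction, with 4 above 0 and 2 below and a median of 0.16. Cd68 (chr11:69664213-69666153, ENSMUSG00000018774), a heavily glycosylated membrane protein of lysosomes and endosomes, was at 193, 206 and 254 scaled CPM in polarized and 284, 244 and 280.2 in depolarized libraries. The groups overlapped by the polarized library of pair C alone, and the change was 0.31 ± 0.18 with an interval from -0.06 to 0.69 (edgeR adjusted p 0.883). Npc1 was at 23.7, 22.4 and 20.2 in polarized and 24.2, 26.4 and 32.7 in depolarized libraries, a change of 0.32 ± 0.20 (edgeR adjusted p 0.942). The groups did not overlap on scaled CPM but did without TMM scaling. Its pairs differed by 0.03, 0.24 and 0.69, and its exons overlap over 1.79% of their length with Rmc1, a gene on the other strand with 8518 counts against 2800.

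Cd63, a tetraspanin of lysosomes and azurophil granules, was at 178, 207 and 203 scaled CPM in polarized and 197, 187 and 125 in depolarized libraries. Its change was -0.23 ± 0.19 (edgeR adjusted p 1), and the depolarized library of pair C was the lowest of the 6. A pseudogene copy, Cd63-ps, held 485 counts against 20593. Mcoln1, the lysosomal calcium channel TRPML1, had a change of -0.47 ± 0.42 on 97 and 76 counts in polarized and depolarized libraries, below 0 in all 3 pairs. The structural membrane proteins Lamp2 and Lamp1 had changes of 0.21 and 0.11, both with 95% intervals that included 0.

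Cd63, Cd68 and Gusb are also on the list of 13 azurophil granule genes, of which 12 were found in the files and 11 tested. Of those, edgeR called 4 lower in depolarized cells and none higher: Mpo (-5.30, edgeR adjusted p 1.96e-08), Elane (-5.66, 8.32e-07), Prtn3 (-3.55, 2.43e-05) and Ctsg (-5.54, 2.29e-04), the granule peroxidase and serine proteases. Without the pairs as a block, edgeR called no gene of the 9971, and the changes of these 4 genes, of the other early neutrophil genes named below and of Nkg7 stayed below 0 with adjusted p of 0.0822 to 0.242. Values of Cd63 (-0.23), Cd68 (0.31) and Gusb (0.29) were small beside these. The polarized library of pair C was also the highest in Mpo, at 166 scaled CPM. Mpo was at 13.2 and 18.9 in the other polarized libraries and at 0.193 to 5.72 in the depolarized ones.

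Neither Tfeb nor Tfe3 passed the test, and the groups overlapped for both. Tfeb (chr17:47737030-47792419, ENSMUSG00000023990) was at 14.5, 22.2 and 13.7 scaled CPM in polarized and 12.1, 23.1 and 26.0 in depolarized libraries, a change of 0.24 ± 0.24 (edgeR adjusted p 1). Tfe3 was at 43.4, 46.2 and 33.9 in polarized and 35.0, 37.2 and 42.3 in depolarized libraries, a change of -0.10 ± 0.19 (edgeR adjusted p 1). Pair C was the pair with the highest difference for both, 0.92 for Tfeb and 0.32 for Tfe3, whereas most pump genes had their lowest difference there. Beside the promoter matches printed above, the fitted changes were 0.87 for Gaa, 0.75 for Ctsa, 0.26 for Ctsd, 0.23 for Gla, 0.19 for Atp6v1a, 0.11 for Lamp1, 0.06 for Atp6v0b and -0.47 for Mcoln1.

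Pair C differed from the other pairs in how the genes ran with their length. Across the 38 genes the rank correlation of the pair difference with the listed gene length was 0.56 in pair C, against -0.09 in A and 0.11 in B, and across the 16 pump genes it was 0.77, 0.07 and 0.22. Across all genes tested the same correlations were 0.22, -0.17 and -0.04. Genes share libraries and are not independent replicates, so these are descriptions. With the length trend removed from every library the medians were 0.24 for hydrolases and 0.03 for the pump.

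**Figure D5:**
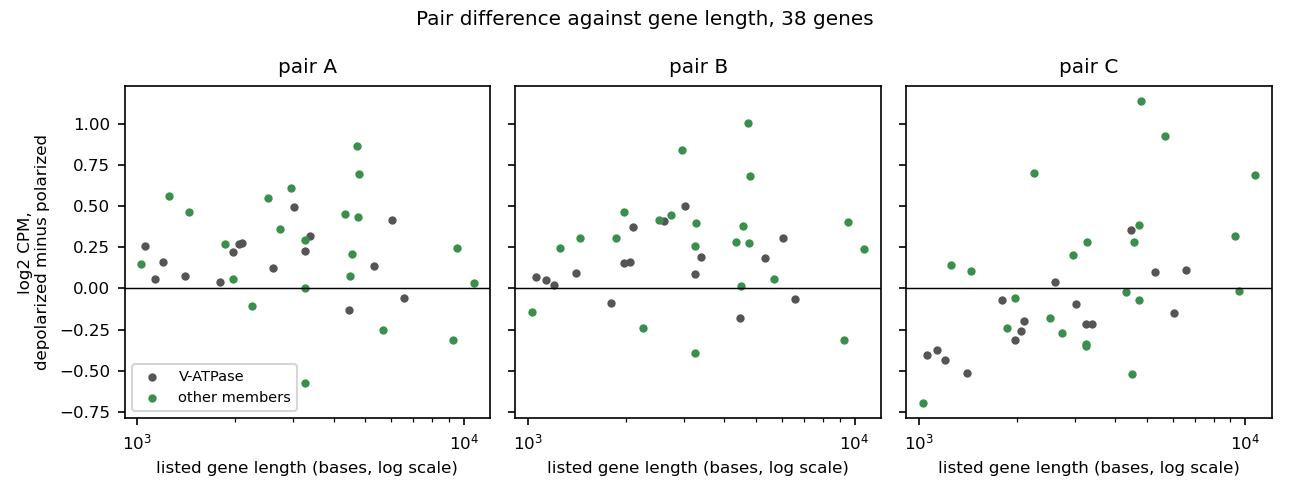
Pair difference in log2 CPM (TMM-scaled, depolarized minus polarized) of the 38 genes against their listed length in bases (log axis), 1 panel per pair, with V-ATPase genes in grey and the other genes in green. In pair C the short genes lie lowest (Spearman 0.56), and in pairs A and B the points show no such slope (-0.09 and 0.11).

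Leaving pair C out changed the calls. With pairs A and B alone, edgeR called 11 of the 38 genes higher in depolarized cells and none lower, where 4.95% of all 10102 genes then tested were called higher. The hydrolases among them were Ctsa (0.93, adjusted p 1.001e-13), Lipa (0.73, 4.67e-08), Ctsd (0.48, 9.00e-05), Ctsz (0.39, 0.0152), Man2b1 (0.37, 0.0116) and Ctsb (0.36, 0.0146). The others were Atp6ap1 (0.50, 9.77e-05), Cd68 (0.40, 0.00648), Psap (0.40, 0.00241), Atp6v1a (0.36, 0.0176) and Lamp2 (0.32, 0.0254). That fit has 1 residual degree of freedom among 4 libraries, and leaving out pair A or pair B instead called none of the 38. Ctsa was the only gene called by another method on all 6 libraries, by DESeq2 (0.75, adjusted p 0.0264, where 0.16% of genes were called higher) and by edgeR without the filter on low counts (0.76, adjusted p 0.0171, where 0.227% were).

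Other genes of the same organelle were taken from lists. Of 10 further pump subunit genes, 2 passed the filter (Atp6v0a2, 0.14, and Atp6v1g2, 0.04, both edgeR adjusted p 1), 4 had no count in any library (Atp6ap1l, Atp6v0a4, Atp6v1e2 and Atp6v1g3), and the 10 together reached 8.15 to 12.5 scaled CPM. Of 8 tested genes of pump assembly and coupling, 2 were above 0, the median was -0.07 and none was called. The lowest p values there belonged to Wdr7 (0.36, edgeR adjusted p 0.995) and Dmxl2 (-0.13, adjusted p 1), which couple V1 to V0.

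A list of 39 further hydrolases and their helpers had 34 tested genes, with 19 above 0, a median of 0.12 and none called. All depolarized libraries lay above all polarized ones for 6 of the 34, against the 4.59% of all genes given above. Gm2a, the activator protein that presents the ganglioside GM2 to hexosaminidase A, was at 1011, 884 and 1043 scaled CPM in polarized and 1664, 1586 and 1975 in depolarized libraries, without overlap. Its change was 0.83 ± 0.18 and its edgeR adjusted p was 0.0702, with pairs at 0.72, 0.84 and 0.92. The cysteine protease Ctss was at 41.9, 35.6 and 84.1 in polarized and 60.7, 51.0 and 123 in depolarized libraries, a change of 0.54 ± 0.17 (edgeR adjusted p 0.380) that was alike in all pairs. Summed over the 39 genes the level was 1964 to 2501 scaled CPM in polarized and 2957 to 3467 in depolarized libraries, so the groups did not overlap. That separation rested on Gm2a: the other 38 genes summed to 1191, 1080.2 and 1458 in polarized and 1480.4, 1371 and 1491 in depolarized libraries, with overlap.

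Of 28 tested genes for further lysosomal membrane proteins, 17 were above 0, the median was 0.08 and none was called. The lowest p values belonged to Scarb2, the receptor that carries glucocerebrosidase to the lysosome (0.46, edgeR adjusted p 0.735), and the nucleoside transporter Slc29a3 (0.38, adjusted p 0.871).

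Markers of maturity and of other cells were measured beside these genes. Of 13 tested early neutrophil genes 12 were below 0 and the median was -1.57. Of the 13, 9 were called lower in depolarized cells (Mpo, Elane, Prtn3, Ms4a3, Ctsg, Fcnb, Chil3, Ltf and Camp), against 24 of all 9971 genes. Without the pairs as a block none of these was called. The list summed to 12020.2 to 22167 scaled CPM in polarized and 4668 to 11056 in depolarized libraries. None of 10 mature neutrophil genes was called. Of the 10, 4 were above 0, among them Cd101 (0.63) and Il1b (0.58), and 6 were below 0. The median was -0.18 and the lowest value -0.38. Macrophages are rich in lysosomes. Of their 12 tested markers 2 were above 0 (Adgre1, 0.49, and Hmox1, 0.16) and 10 below, none was called, and the median was -0.89. On scaled CPM all depolarized libraries lay below all polarized ones for 5 of the 12, against 4.54% of all genes, and above for none. The list of 14 summed to 272 to 352 scaled CPM in polarized and 287 to 372 in depolarized libraries, none of them at 0 in all libraries. Monocyte markers had a median of -1.41 over 5 tested genes, with none called, and summed to 889 to 1343 and 758 to 936. For 3 of these 5 all depolarized libraries lay below all polarized ones and for 1 above, against 4.54% and 4.59% of all genes.

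Osteoclast markers, which include genes that many macrophages express, summed to 111 to 137 scaled CPM in polarized and 131 to 139.5 in depolarized libraries, with Calcr and Dcstamp at 0. Eosinophil markers summed to 51.2 to 463 and 59.5 to 192, B lineage markers to 15.8 to 247 and 9.02 to 353, erythroid markers to 43.8 to 64.0 and 26.1 to 95.7, and basophil and mast cell markers to 0.513 to 0.726 and 0.203 to 2.41. Of the T and NK cell list, which summed to 22.2 to 32.8 and 16.3 to 23.9, Nkg7 was called lower in depolarized cells (-4.65, edgeR adjusted p 3.21e-05). The part of maturity, of other cells and of gene length in the differences between hydrolases and pump was not tested.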

How the data were processed

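Whole-cell RNA of 6 libraries was analysed, each as a table of 41388 genes. The deposited counts are whole and not normalized. The deposited CPM equal the counts scaled to the library total, and the deposited RPKM equal that CPM per kilobase of the listed gene length. Per the submitters' processing notes, bcl2fastq, STAR (2.0.4b), Subread and featureCounts (1.45) were used with GRCm38, and the kit was a low-input SMARTer kit per the labels' protocols. The strand setting, the handling of reads with several matches and the annotation release were not stated.

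Symbols were matched for 40254 genes. In R 4.3.3, edgeR 4.0.16 (filterByExpr by group, TMM, quasi-likelihood F test) was fitted on all 6 libraries with the replicate code as a block. It left 9971 genes holding 99.9% of the counts and 2 residual degrees of freedom. p-values were adjusted by Benjamini-Hochberg over all of these, and genes were called under 0.05. Standard errors are the change divided by the square root of F, and log2 CPM used a prior count of 2. The labels name no mice, so p-values with the block measure the spread of the differences within these pairs and not between named mice. Pairing rests on the design text. Deviations from group means correlated at 0.0751, 0.27 and 0.0326 within codes A, B and C, and at -0.215 to 0.135 across codes. The values within A and C were thus below the highest across codes, so the counts alone do not show these pairs. No library was a copy of another in its group (chi-square over degrees of freedom 29.1 to 100). The floor of 3 counts is 0.0536 CPM in the polarized and 0.0531 in the depolarized group and covers counting error only.

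The genes, classes and lists were chosen with earlier results of these data known. Per-library values are given for called genes, up to 3 genes per class with the lowest p, and the most abundant per class, and from other lists for called genes or else up to 2 with the lowest p. Results were recomputed without the block, with DESeq2 1.42.0, with DESeq2-type size factors, without the count filter and with at least 50 counts in at least 3 libraries, with a robust fit, with the length trend removed and without each pair. Scaling without TMM was added after the data were seen. Azu1 was not analysed here. The edgeR fit alone was also run on simulated counts, drawn with a common dispersion and no pair effect. That run did not cover the other methods or a library like the polarized one of pair C.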

Additional observations from a re-analysis of the deposited data

How the results depend on the processing

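The number of the 38 genes called higher was 0 as reported, 1 with DESeq2 and 1 without the filter on low counts (Ctsa in both), and 0 to 11 when a pair was left out. All 11 calls came without pair C (500 higher and 518 lower over all genes, against 8 and 24). None was called lower in any setting. Ctsa had adjusted p from 1.001e-13 to 1 over the alternatives, with 0.525 in the fit with no replicate block. In that unpaired fit none of the 38 was called and the 8 higher and 24 lower calls over all genes were lost, among them the 10 calls named from other lists (adjusted p 0.0822 to 0.242). Of those 10, 7 were called with DESeq2, 7 with the length trend removed, 8 with a robust fit, and 7 of the 8 tested under the stricter filter. In the unpaired fit the pump median minus the hydrolase median was -0.21, against -0.22 as reported, -0.21 with the length trend removed and -0.24 to -0.18 without a pair. Adding up CPM without Atp6ap1 and Ctsd moved the mean log2 ratio difference from 0.18 to 0.25, and leaving out a pair gave 0.14 to 0.22. The median of the pump was -0.03 to 0.16 and that of hydrolases 0.20 to 0.36 without a pair. On CPM without TMM scaling, chosen after seeing the data, the pump median in pair C was 0.021 instead of -0.21, that of hydrolases 0.27 instead of 0.04, and 9 genes had all depolarized libraries above, 3 of them among the 4 of the scaled values, against 726 and 458 of all genes tested.

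The sign held in every alternative for 22 of the 38 genes. It turned for Atp6v0a1 without the filter (0.0054) and, with the length trend removed, for Atp6v1f (0.020) and Tcirg1 (-0.0040). Leaving out a pair gave -0.062 to 0.029 for Atp6v0a1, -0.048 to 0.21 for Atp6v0b, -0.011 to 0.25 for Atp6v0c, -0.061 to 0.16 for Atp6v0e, -0.22 to 0.085 for Atp6v1d, -0.21 to 0.089 for Atp6v1e1, -0.17 to 0.16 for Atp6v1f, -0.16 to 0.055 for Atp6v1g1, -0.074 to 0.19 for Atp6v1h and -0.16 to 0.11 for Tcirg1. It gave -0.25 to 0.047 for Ctsh, -0.00027 to 0.26 for Ctsl, -0.18 to 0.30 for Lamp1, -0.038 to 0.28 for Npc2, -0.31 to 0.0051 for Tfe3 and -0.090 to 0.49 for Tfeb. The cause was not tested. Gaa and Mcoln1 rest on 91 to 175 and 76 to 97 counts per group, which limits their precision.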

Other observations

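Genes that deliver enzymes to lysosomes, control TFEB and TFE3, or move and fuse lysosomes were measured as well, with no call by edgeR in any of these lists. Of 8 tested genes for sorting receptors and the tagging of enzymes with mannose 6-phosphate, 4 were above 0 with a median of 0.06. Nagpa, which uncovers the mannose 6-phosphate tag, had a change of 1.05 on few counts (edgeR adjusted p 0.675), with 0.699 to 1.395 scaled CPM in polarized and 1.83 to 2.14 in depolarized libraries. Gga3, an adaptor for the tag's receptors, was at 13.8 to 16.7 and 19.2 to 22.1, a change of 0.43 (edgeR adjusted p 0.747). The groups overlapped for neither gene. These were the 2 of the 8 with all depolarized libraries above all polarized ones, against 4.59% of all genes. Gnptab, which adds the phosphate of the tag and was picked out after its values were seen, was at 3.14 to 3.95 in polarized and 1.73 to 2.75 in depolarized libraries, a change of -0.62 (edgeR adjusted p 0.871). On scaled CPM it was the 1 of the 8 with all depolarized libraries below, against 4.54% of all genes, and its groups overlapped without TMM scaling.

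Of 16 tested genes of the Ragulator, mTORC1 and the control of TFEB and TFE3, 7 were above 0 with a median of -0.04. Mlst8, a subunit of mTORC1, was at 4.62, 10.2 and 5.65 scaled CPM in polarized and at 3.25, 3.71 and 2.08 in depolarized libraries. All depolarized libraries lay below all polarized ones for this 1 of the 16 genes, against 4.54% of all genes. The change of Mlst8 was -1.13 ± 0.30 (edgeR adjusted p 0.202). The kinase gene Mtor had a change of 0.54 (edgeR adjusted p 0.871). Of 15 genes of lysosome positioning and fusion, 9 were above 0 with a median of 0.05. Vps33a and Vps16, subunits of the tethering complexes HOPS and CORVET, had changes of 0.60 and 0.44 (edgeR adjusted p 0.442 and 0.866), and Vps33a lay at 10.4 to 12.6 in polarized and 16.98 to 17.95 in depolarized libraries.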
